A study of Mus musculus with 17 samples.

Results

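Mammary tumours lacking Rb1 and Trp53 that had grown as transplants were compared with tumours of the same label, Rbp53 deleted with MMTV-Cre, that had arisen in the mouse in which the deletion was made. Of the 17 arrays of the study, 7 belong to this comparison and were chosen by the sample labels alone: 5 transplants (TMCRP-1, TMCRP-3, TMCRP-985, TMCPR-1014 and TMCRP-1123, here transplants 1 to 5) and 2 primary-host tumours, MCRP-1175 of a nulliparous mouse and MCRP-1241 of a parous mouse. In both groups the Rb and p53 genes had been deleted by Cre recombinase under the mouse mammary tumour virus (MMTV) promoter, and the strain background is given as mixed. An array titled MCRP-1280 was left out because its title names Rbp53 and its other labels name p53 alone. The other 10 arrays served as reference levels: 2 Rb/p53 tumours labelled Ad-CMVcre (Transplant), in which an adenovirus carried Cre, 3 tumours labelled p53 deleted with MMTV-Cre, which include MCRP-1280, and 5 normal mammary tissues from Rbp53 mice.

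Several limits of these groups follow from the labels. The age of the mice, the strain and immune status of the animals that received the transplants, and what was transplanted are not among the labels. The titles call 4 of the 5 transplants primary tumours. The MMTV promoter is active in mammary epithelium and also in salivary gland and lymphoid cells. The primary-host group holds 1 nulliparous and 1 parous mouse, so parity and the single array cannot be told apart. The samples are described as independent tumours. Each was measured on 1 Affymetrix Mouse Gene 1.0 ST array, and values are log2 expression, so that a difference of 1 is a 2-fold difference; their number limits the precision of every comparison.

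Milk proteins such as the caseins, whey acidic protein (Wap) and Glycam1 are made by the secretory epithelium of the breast under prolactin, whose receptor acts through the transcription factor STAT5. Glycam1 is also made by the high endothelial vessels of lymph nodes, through which lymphocytes enter. Antibody genes are rearranged in B cells and are transcribed most strongly in plasma cells, where the joining chain (Jchain) links secreted IgA and IgM. A tumour placed in a new animal keeps its own epithelium and acquires vessels, stroma and leukocytes of the recipient, so that a bulk RNA sample holds the transcripts of both.

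The proximal promoters of 3 milk genes are shown because Glycam1 and Wap had the largest falls and Csn2 encodes the major milk protein. The sequences are the 250 bases before the RefSeq gene start in GRCm38.p6, all 3 on the minus strand, and capitals mark a match to TTCNNNGAA, the palindromic STAT motif, which reads the same on both strands.
Glycam1, chr15:103565082-103565331: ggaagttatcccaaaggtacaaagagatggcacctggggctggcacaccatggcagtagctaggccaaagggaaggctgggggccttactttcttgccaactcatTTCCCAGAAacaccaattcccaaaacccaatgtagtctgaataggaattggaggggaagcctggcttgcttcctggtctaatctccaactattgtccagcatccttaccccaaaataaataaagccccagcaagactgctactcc
Wap, chr11:6638650-6638899: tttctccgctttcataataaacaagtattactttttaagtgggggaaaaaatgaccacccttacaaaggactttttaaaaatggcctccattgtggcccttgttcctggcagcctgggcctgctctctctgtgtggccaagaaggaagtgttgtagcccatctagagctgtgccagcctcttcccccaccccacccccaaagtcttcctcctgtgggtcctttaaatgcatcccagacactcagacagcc
Csn2, chr5:87699426-87699675: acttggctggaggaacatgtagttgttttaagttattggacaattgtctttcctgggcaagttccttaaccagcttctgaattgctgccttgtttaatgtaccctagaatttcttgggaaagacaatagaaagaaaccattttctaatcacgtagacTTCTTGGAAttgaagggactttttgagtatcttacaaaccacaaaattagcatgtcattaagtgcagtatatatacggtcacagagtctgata
The match in Glycam1, TTCCCAGAA, began 145 bases before the start, and that in Csn2, TTCTTGGAA, began 93 bases before it. The Wap window held no match. Of 32851 such windows in the RefSeq table, 2306 (7.02%) held the motif, so a match alone is a description and does not show a bound site. Sgce and Peg10 and the immunoglobulin genes are named only.

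Single tumours stood apart before any group difference was considered. Correlation between arrays over all probe sets was 0.971 to 0.982 between transplants and 0.968 between the primary-host tumours. Between a transplant and a primary-host tumour it was 0.959 to 0.983, so the groups did not separate as a whole. The parous host tumour lay apart on the first principal component (33.3% of the variance, score 62.1), transplant 2 on the second (23.4%, score 45.4) and transplant 1 on the third (15%, score 39.4). On the array of the parous host tumour 192 genes exceeded every other one of the 7 arrays by at least 1 log2 unit, and 47 lay below all of them by that much. Secreted proteins of salivary and lacrimal glands led this set. The salivary protein Bpifa2 was 14.17 there, against 6.63 in the nulliparous host tumour and 6.17 to 6.92 in the transplants. Salivary amylase (Amy1) was 13.41 there, against 6.77 and 6.28 to 6.64, and the chitinase Chia1 was 13.93, against 6.63 and 6.59 to 6.70. Over the 23 measured genes of a salivary and lacrimal list, added after the values were seen, the mean level was 11.73 in the parous host tumour, 6.16 in the nulliparous one, 6.09 to 6.24 in the transplants and 6.24 to 6.45 in normal mammary tissue. For the genes that passed and the lists described in most detail, values are given with and without that array.

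The deleted gene Rb1, the retinoblastoma tumour suppressor, was similarly low in both groups. It measured 9.35 and 9.40 in the primary-host tumours and 9.29, 9.43, 9.56, 9.70 and 9.92 in transplants 1 to 5, against a median of 11.19 in normal tissue. The difference between the groups was 0.20 (95% interval -0.20 to 0.60). Whole-gene probe sets also read the part of the transcript that is not deleted, so these values check the labels only in part. Trp53 was not analysed here.

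In the transplants 4 genes fell (0.0201%) and 1 rose (0.00502%), 5 of 19938 in all (0.0251%), at a Benjamini-Hochberg adjusted p below 0.05 in limma. Glycam1, Wap and the immunoglobulin kappa variable genes Igkv6-20 and Igkv9-120 fell, and Sgce, epsilon-sarcoglycan, rose. At an unadjusted p below 0.05 stood 1579 genes (7.92%), of which 769 (3.86%) were higher and 810 (4.06%) lower in the transplants. In 1754 genes (8.80%) all 5 transplants exceeded both primary-host tumours, and in 1089 (5.46%) all 5 lay below both. The median difference over all genes was 0.035, so differences below are relative to a centre near 0. These shares over all genes are the background for the counts of each list below.

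**Figure D1:**
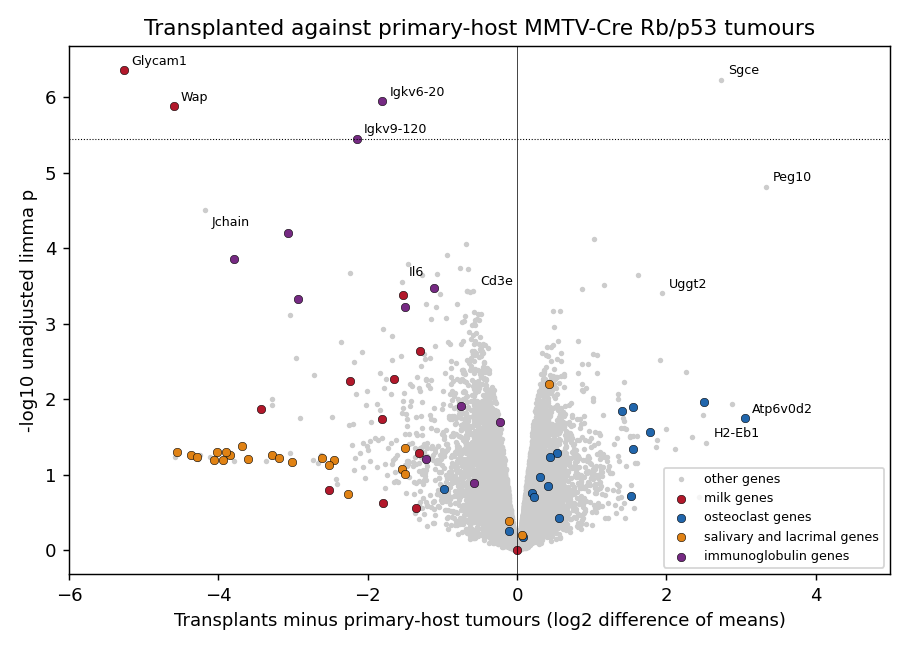
The log2 difference of means, transplants minus primary-host tumours (horizontal), against -log10 of the unadjusted limma p (vertical), for 19938 genes, with 4 gene lists coloured and the dotted line at the largest p that passed the adjusted threshold. Glycam1, Wap, Igkv6-20 and Igkv9-120 lie at the left on or above the line and Sgce at the right, while the salivary and lacrimal genes reach large differences at weak p.

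Milk genes were lower in the transplants, with the clearest separation in Glycam1 and Wap. Glycam1 measured 11.33 in the nulliparous and 12.40 in the parous host tumour, and 6.29, 6.47, 6.52, 6.93 and 6.79 in transplants 1 to 5. The groups did not come near each other, and the transplants spread over less than 1 unit. The difference of -5.26 ± 0.30 (SE; 95% interval -5.97 to -4.56) corresponds to 38.4-fold, with an adjusted p of 0.00584. Wap measured 11.52 and 12.80 in the host tumours and 7.52, 7.61, 7.61, 7.72 and 7.35 in transplants 1 to 5. It fell by 4.60 ± 0.31 (SE), or 24.2-fold, with an adjusted p of 0.00651. Without the parous host tumour the differences were -4.73 for Glycam1 and -3.96 for Wap, against a host group of 1 array with no spread of its own. Both calls ended with MCRP-1280 added to the hosts (adjusted p = 0.503 and 0.513) and with all 17 arrays in the fit (adjusted p = 0.218 and 0.153). That of Glycam1 also ended with the Ad-Cre transplants added (adjusted p = 0.0848). In normal tissue Glycam1 ranged from 6.86 to 11.66 and Wap from 7.99 to 12.12, with medians of 9.39 and 8.39, so the primary-host tumours lay near the top of or above the normal range. The p53 tumours measured 6.62, 7.94 and 7.77 in Glycam1, nearer to the transplants than to the primary-host Rb/p53 tumours. In the transplants Glycam1 lay close to the 25th percentile of all probe sets, which was 6.37 on the array where that percentile was lowest. Wap lay between that and 8.27, the median over genes. The deposited values carry no detection call, so a presence of either transcript above background in the transplants is not shown, and the folds are between measured values.

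Of 14 milk genes listed, 13 were measured and 2 fell, where 0.0201% of all genes did. At an unadjusted p below 0.05 in limma, 8 were lower, where 4.06% of all genes were. In 7 all transplants lay below both hosts, where 5.46% of all genes did, and the median difference was -1.80. The median was -2.56 without the nulliparous host tumour and -1.28 without the parous one. The major milk protein beta-casein (Csn2) measured 12.50 and 13.94 in the host tumours and 10.39, 9.99, 9.10, 11.87 and 7.62 in transplants 1 to 5. The groups did not overlap, but the transplants spread over more than 4 units and the difference of -3.43 ± 1.05 did not pass (adjusted p = 0.592). A minor casein, Csn1s2b, was 7.90 and 7.40 in the host tumours against 5.84 to 6.68 (-1.53, adjusted p = 0.266). Lactoferrin (Ltf), an iron-binding milk and neutrophil protein, was 8.88 and 10.41 against 6.89 to 8.66 (-2.24, adjusted p = 0.564). The alpha- and kappa-caseins overlapped between the groups: Csn1s1 ranged from 7.96 to 13.11 in the transplants against 11.91 and 12.95, and Csn3 from 7.79 to 12.35 against 10.74 and 12.20. Xanthine dehydrogenase (Xdh), a protein of the milk fat globule, averaged 10.50 in both groups. Transplant 4 was the highest transplant in Csn1s1, Csn2, Csn1s2b, Csn3, Ltf and butyrophilin (Btn1a1, 8.87 against at most 7.45 in the others). In that tumour the adipocyte hormone Adipoq was 8.33, against 6.07 to 6.64 in the other transplants, and the mast cell protease Mcpt4 was 7.85, against 5.76 to 6.0. Glycam1 and Wap thus separated the groups where the alpha- and kappa-caseins did not, and the part of normal tissue taken with a tumour was not tested.

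**Figure D2:**
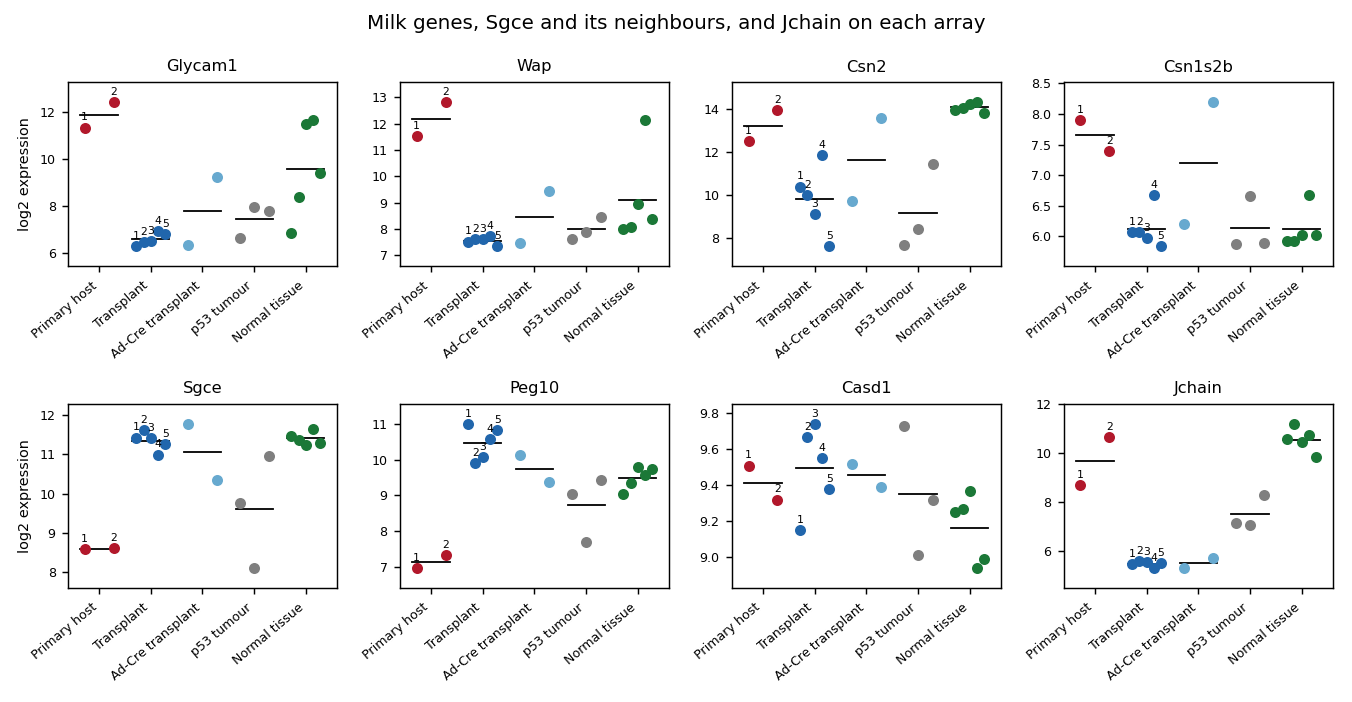
Log2 expression (vertical) of 8 genes on each of the 17 arrays, by group, with a line at the group mean and the replicate number above the primary-host tumours and transplants. Glycam1, Wap and Jchain separate the primary-host tumours (red) from all transplants (dark blue), Sgce and Peg10 do so in the other direction, and Casd1 overlaps.

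Epithelial markers gave no call. Of 24 luminal and epithelial genes measured, 0 passed in limma. At an unadjusted p below 0.05, 2 were lower and 0 higher, where 4.06% and 3.86% of all genes were. None had groups that did not overlap, where 5.46% of all genes were lower and 8.80% higher without overlap. The median was -0.29 against 0.035 for all genes. It was -0.47 without the nulliparous host tumour and -0.09 without the parous one, and its difference from the milk genes was not tested. Elf5, a transcription factor of the alveolar lineage, was 7.42 and 9.53 in the host tumours and 6.64 to 7.70 in the transplants (-1.50, adjusted p = 0.610). The epithelial adhesion molecule Epcam varied more within the transplants than between the groups, from 7.06 in transplant 5 to 11.06 in transplant 1, against 9.65 and 10.34 in the hosts. E-cadherin (Cdh1) also spanned the hosts, from 7.60 in transplant 3 to 10.06 in transplant 1. The luminal keratin Krt8 averaged 12.66 ± 0.55 (SD, n = 5) in the transplants and 12.82 ± 1.01 (SD, n = 2) in the hosts. The basal keratin Krt14 ranged from 7.57 to 9.62 in the transplants, which overlapped the hosts at 8.92 and 9.21. The mesenchymal filament vimentin (Vim) was between 13.93 and 14.13 on all 7 arrays.

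Sgce was the only gene that rose, and its imprinted neighbour Peg10 was higher with it. Sgce encodes a membrane protein of the sarcoglycan family and Peg10 a protein derived from a retrotransposon; both lie head to head and are expressed from the paternal allele. Sgce measured 8.59 and 8.61 in the host tumours and 11.42, 11.61, 11.40, 10.99 and 11.26 in transplants 1 to 5. All 5 transplants were at least as high as 10.99, within or just under the normal range of 11.23 to 11.65, and both host tumours lay well below it. The difference of 2.74 ± 0.16 (SE; 95% interval 2.35 to 3.12), or 6.66-fold, had an adjusted p of 0.00584. Peg10 measured 6.97 and 7.32 in the hosts and 10.99, 9.90, 10.06, 10.57 and 10.83 in transplants 1 to 5. Its difference of 3.33 ± 0.32, or 10-fold, just missed the threshold (adjusted p = 0.0508). It passed without transplant 2 (3.47, adjusted p = 0.0439). The Peg10 difference was 3.16 without the nulliparous host tumour and 3.50 without the parous one. The difference in Sgce was 2.75 without the parous host tumour. Sgce did not pass when all 12 tumour arrays shared the estimate of spread (adjusted p = 0.826), with all 17 arrays (0.153) or with MCRP-1280 added (0.533).

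Low Sgce and Peg10 values were not confined to the primary-host Rb/p53 tumours. The p53 tumours measured 9.75, 8.11 and 10.94 in Sgce and 9.05, 7.70 and 9.43 in Peg10. The second was below both hosts in Sgce and just above them in Peg10. The third is MCRP-1280, whose title names Rbp53, and it lay nearer to the transplants than to the hosts in both genes. The Ad-Cre transplants measured 11.76 and 10.34 in Sgce and 10.12 and 9.37 in Peg10. The flanking gene Casd1, a sialic acid O-acetyltransferase on the other side of Sgce, was 9.51 and 9.32 in the hosts and 9.15 to 9.74 in the transplants (difference 0.08, 95% interval -0.32 to 0.49). Ppp1r9a, the neurabin gene beyond Peg10, was 7.33 and 7.28 against 7.33 to 8.13 (0.40, adjusted p = 0.670). Of 31 measured imprinted genes in a list added after the values were seen, 1 rose, where 0.00502% of all genes did, and the median was 0.126. In limma 3 were higher and 0 lower at an unadjusted p below 0.05, where 3.86% and 4.06% of all genes were. Imprinted genes elsewhere differed between single tumours: the growth factor gene Igf2 was 11.60 in the nulliparous host and 7.59 in the parous host, and Dlk1, a Notch ligand-like membrane protein, was 11.18 in transplant 1 and 8.15 to 8.65 in the other transplants.

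Antibody transcripts were lower in every transplant than in either primary-host tumour for most genes measured. Among 11 immunoglobulin genes with a probe set of their own, 2 fell, where 0.0201% of all genes did. In limma 9 were lower at an unadjusted p below 0.05, where 4.06% of all genes were. In 9 all transplants lay below both hosts, where 5.46% of all genes did. The median was -1.50 (-0.96 without the parous host tumour). Igkv6-20 measured 8.04 and 8.07 in the hosts and 6.09, 6.30, 6.47, 6.16 and 6.22 in transplants 1 to 5. It fell by 1.81 ± 0.12 (SE), with an adjusted p of 0.00651. Its transplant values lay around 6.37, the lowest 25th percentile of any array, and the low-value filter removed the gene. Igkv9-120 measured 8.70 and 8.32 in the hosts and 6.30, 6.27, 6.66, 6.15 and 6.41 in the transplants, around the same low level. It fell by 2.15 ± 0.17 (adjusted p = 0.0142). Without the parous host tumour the differences were -2.34 for Igkv9-120 and -1.79 for Igkv6-20. Neither passed with MCRP-1280 added (adjusted p = 0.503 and 0.542) or with all 17 arrays (0.324 and 0.419). Kappa variable genes resemble one another, so that a probe set can read relatives of the gene it is named for. Over 29 probe sets whose every symbol is an immunoglobulin gene, 14 of them with several symbols, 4 fell, where 0.0309% of all 35556 probe sets fell, 27 were lower at an unadjusted p below 0.05 (4.51% of all probe sets) and the median was -2.11. The mean of these 29 was 7.75 and 8.99 in the hosts, 6.15, 6.31, 6.30, 6.21 and 6.29 in transplants 1 to 5, 6.23 in both Ad-Cre transplants, 6.93 to 7.73 in the p53 tumours and 8.64 to 9.32 in normal tissue. All 7 transplanted tumours thus lay below every other array.

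Jchain and the IgA and IgM heavy chains followed the same order without passing the test, and the IgG3 heavy chain did not follow it. Jchain measured 8.71 and 10.66 in the hosts and 5.48, 5.60, 5.57, 5.33 and 5.52 in transplants 1 to 5. All 5 transplants lay below the lowest 25th percentile, so the difference between measured values, -4.18 ± 0.44, is not a fold over a shown level. It had an adjusted p of 0.0878. The difference was -3.21 without the parous host tumour and -5.15 without the nulliparous one, and each of these rests on 1 host array. The IgA heavy chain (Igha) was 9.12 and 10.98 in the hosts and 6.62 to 7.54 in the transplants (-2.93, adjusted p = 0.291). The IgM heavy chain (Ighm) was 8.88 and 9.98 against 7.84 to 7.99 (-1.50, adjusted p = 0.333). The IgG3 heavy chain (Ighg3) overlapped, at 5.46 and 7.87 against 5.15 to 5.59. These heavy chains depended on the host tumour used. Without the nulliparous one the differences were -3.86 for Igha, -2.05 for Ighm and -2.43 for Ighg3. Without the parous one they were -2.01 for Igha and -0.96 for Ighm. Fewer antibody-making cells and less antibody RNA per cell cannot be told apart in bulk samples, here or in the other cell type results.

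Markers of the cells that make antibodies gave no call. Of 15 plasma cell and antibody secretion genes, 0 passed in limma, 5 had all transplants below both hosts, where 5.46% of all genes did, 0 had the reverse, and the median was -0.152. The difference between this list and the antibody genes was not tested. The mean of the 15 was 8.78 to 9.14 in the hosts and 8.47 to 8.69 in the transplants. That mean includes Jchain, at 8.71 and 10.66 in the hosts and 5.33 to 5.60 in the transplants. A mean without Jchain was not taken, so a separation of the other members is not shown. At an unadjusted p below 0.05 in limma stood 2 of the 15, both lower, where 4.06% of all genes were lower. They were Jchain and Derl3, a component of the degradation machinery of the endoplasmic reticulum. Derl3 was 8.07 in the nulliparous host, close to the transplants at 7.77 to 7.96, and 10.63 in the parous host. Mzb1, a chaperone of plasma cells, was 7.28 and 7.64 against 7.27 to 7.52. Among 22 B cell genes, 0 passed in limma and the median was 0.068. At an unadjusted p below 0.05, 4 were lower and 1 higher, where 4.06% and 3.86% of all genes were. The B cell receptor subunit Cd79a was 6.25 and 6.43 in the hosts and 5.73 to 5.95 in the transplants (-0.49, adjusted p = 0.504), and the B cell surface protein Ms4a1 was 5.61 and 5.99 against 5.41 to 5.60. In both genes the transplants lay below 6.37, the lowest 25th percentile of any array. Cd79b, the other receptor subunit, overlapped (7.73 and 8.20 against 7.66 to 9.30). The gene on the high side was Cd72, a B cell and myeloid coreceptor, at 10.06 and 8.32 against 10.09 to 12.82. The recombinase genes Rag1 and Rag2, which assemble antigen receptors, stayed low on all arrays: Rag1 was 5.82 and 6.01 against 6.14 to 6.50, and Rag2 5.10 and 5.27 against 4.98 to 5.35.

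**Figure D3:**
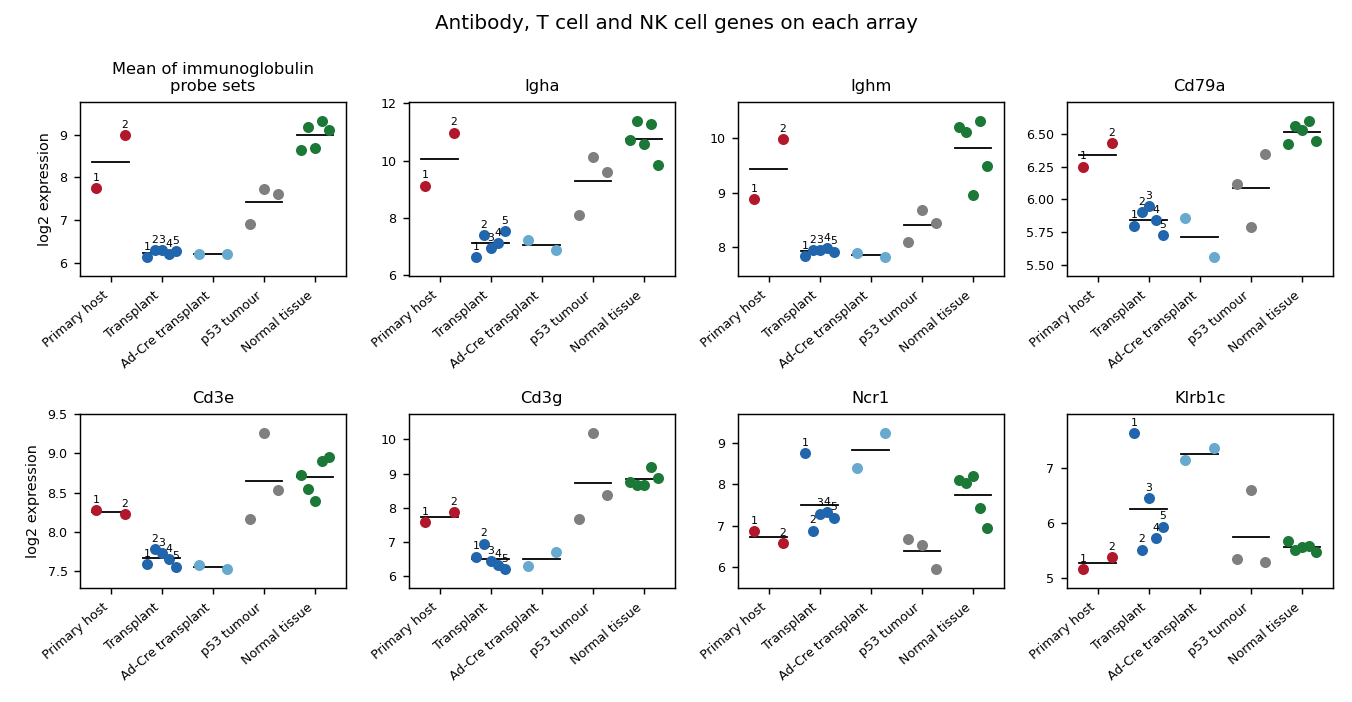
Log2 expression (vertical) of the mean of 29 immunoglobulin probe sets and of 7 lymphoid genes on each of the 17 arrays, by group, with a line at the group mean. The antibody and Cd3 values of the transplants, MMTV-Cre and Ad-Cre alike, sit at the bottom, and Ncr1 and Klrb1c are highest in the Ad-Cre transplants and transplant 1.

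T cell genes were mixed, with some chains of the receptor complex lower in the transplants and none past the threshold. Of 28 T cell genes, 0 passed in limma. At an unadjusted p below 0.05, 6 were lower and 0 higher, where 4.06% and 3.86% of all genes were. In 8 all transplants lay below both hosts and in 3 above, where 5.46% and 8.80% of all genes did. The median was -0.084 against 0.035 for all genes, and 0.044 without the nulliparous host tumour. Of 9 T cell receptor gene segments, 0 passed, 0 were lower and 1 higher at an unadjusted p below 0.05, 1 did not overlap in each direction, and the median was 0.074. Cd3e, a signalling chain of the receptor, measured 8.28 and 8.23 in the hosts and 7.59, 7.78, 7.73, 7.66 and 7.56 in transplants 1 to 5 (-0.59 ± 0.09, adjusted p = 0.266). Cd3g, another chain, measured 7.57 and 7.88 and then 6.57, 6.95, 6.43, 6.34 and 6.21 (-1.22 ± 0.21, adjusted p = 0.324). The groups did not overlap in either gene. The costimulatory receptor Icos was 7.64 and 7.62 against 7.03 to 7.33. Cd8a of cytotoxic T cells was 7.07 and 7.15 against 6.76 to 7.0, a difference of -0.19. Cd4, which macrophages carry as well as helper T cells, overlapped (7.15 and 7.48 against 7.29 to 8.42). The p53 tumours measured 8.16, 9.26 and 8.53 in Cd3e, above every transplant.

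Natural killer (NK) cell genes gave no call either. Of 23 measured, 0 passed in limma, 1 was higher at an unadjusted p below 0.05, where 3.86% of all genes were, 6 had all transplants above both hosts, where 8.80% of all genes did, and none the reverse. The median was 0.287, or 0.092 without transplant 1, and its difference from that of the T cell genes was not tested. The NK receptor Ncr1 was 6.87 and 6.58 in the hosts and 8.75, 6.88, 7.29, 7.33 and 7.19 in transplants 1 to 5. Klrb1c, which encodes the NK1.1 receptor, was 5.16 and 5.37 and then 7.63, 5.51, 6.45, 5.72 and 5.93. Transplant 1 was the highest in both, and transplant 2 the lowest. The chemokine Xcl1, made by NK and T cells, was 7.18 and 6.96 against 7.20 to 8.04 (0.53, adjusted p = 0.628). Granzyme B (Gzmb), a protease of killer cell granules, overlapped (8.28 and 7.65 against 7.14 to 10.29).

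Class II antigen presentation genes divided the transplants themselves. Of 9 genes measured, 0 passed in limma. At an unadjusted p below 0.05, 1 was higher and 1 lower, where 3.86% and 4.06% of all genes were. The list median was 0.416, or 0.759 without transplant 2. H2-Eb1, a class II beta chain, was 8.19 and 8.50 in the hosts and 11.69, 8.32, 11.06, 10.84 and 12.47 in transplants 1 to 5. Transplant 2 was at the level of the hosts, and the other 4 were above every normal tissue, the highest of which was 8.84. The difference was 2.53 (adjusted p = 0.624), or 3.17 without transplant 2 (adjusted p = 0.291). Cd74, the invariant chain that class II molecules need, was 11.58 and 11.64 in the hosts and 12.60, 8.55, 12.15, 12.06 and 13.30 in transplants 1 to 5. Transplant 2 was 3 units below the hosts there, and the other transplants were above them. H2-Aa and H2-Ab1, the chains of the other class II molecule, were 8.25 and 7.94 in transplant 2 and at least 11.65 and 11.14 in the others. H2-Ea, the alpha partner of H2-Eb1, was lower in the transplants, at 6.39 to 6.61 against 6.76 and 6.89 (-0.34, adjusted p = 0.565). It reached 8.04 to 9.68 in the p53 tumours.

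A group of innate immune genes had the same division. Trim12a, a member of the Trim5 family of antiviral proteins, measured 6.05 and 6.09 in the hosts and 8.68, 5.99, 8.19, 8.06 and 8.78 in transplants 1 to 5, and 5.88 to 6.21 in normal tissue. The difference was 1.87 (adjusted p = 0.618), or 2.36 without transplant 2 (adjusted p = 0.083). The DNA sensor family gene Ifi209 was 5.67 and 5.88 in the hosts, 5.77 in transplant 2 and 7.71 to 9.54 in the other transplants. Sh2d1b1, an adaptor of NK and myeloid receptors, was 6.26 and 6.31 in the hosts, 6.61 in transplant 2 and 7.99 to 9.63 in the others. Both Ad-Cre transplants were on the high side, with 7.91 and 8.99 in Trim12a and 8.15 and 8.95 in Sh2d1b1. Ifi202b went the other way, at 8.56 and 9.08 in the hosts and 6.30 to 7.95 in the transplants. A list of Ly49, NK receptor, Trim and Ifi200 family genes was added after the values were seen. Of its 16 measured genes 0 passed in limma. At an unadjusted p below 0.05, 7 were higher and 1 lower, where 3.86% and 4.06% of all genes were. Of 21 interferon response genes 0 passed and 0 had an unadjusted p below 0.05, with a median of 0.181. Strain of the recipient is not given and its part in these values was not tested.

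**Figure D4:**
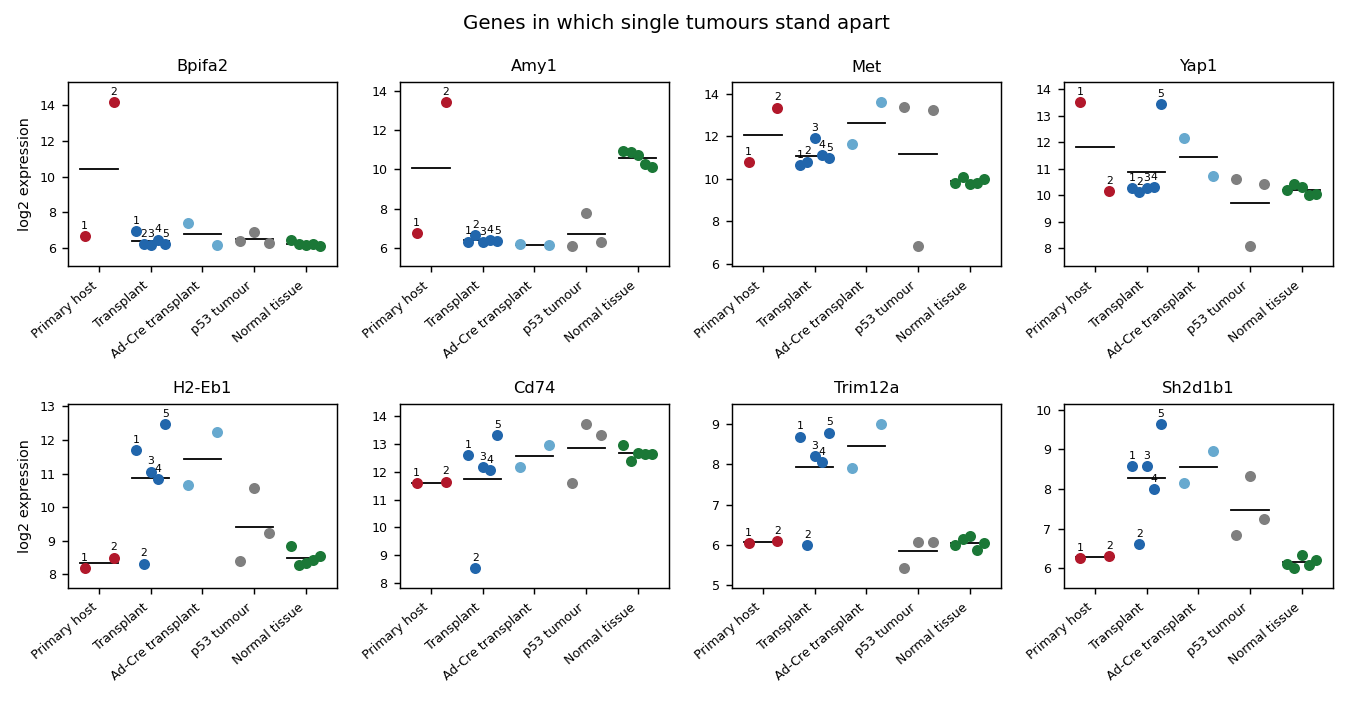
Log2 expression (vertical) of 8 genes on each of the 17 arrays, by group, with a line at the group mean and replicate numbers above the primary-host tumours and transplants. Primary-host tumour 2 (parous) stands alone in Bpifa2, primary-host tumour 1 and transplant 5 share high Yap1, and transplant 2 lies apart from the other transplants in H2-Eb1, Cd74, Trim12a and Sh2d1b1.

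Among myeloid genes, those of osteoclasts and multinucleated macrophages were higher in 4 of the 5 transplants. The list was added after the values were seen, so its counts are a description. Of its 17 genes 0 passed in limma. At an unadjusted p below 0.05, 6 were higher, where 3.86% of all genes were, and 0 were lower. In 6 all transplants exceeded both hosts, where 8.80% of all genes did, and the median was 0.535. Atp6v0d2, a proton pump subunit of osteoclasts, measured 7.27 and 7.90 in the hosts and 11.88, 10.97, 10.42, 11.83 and 8.08 in transplants 1 to 5 (3.05 ± 0.99, adjusted p = 0.596). Without transplant 5 the difference was 3.69 (adjusted p = 0.298). The gelatinase Mmp9 measured 10.03 and 9.47 and then 13.17, 12.14, 12.56, 13.05 and 10.37 (2.51, adjusted p = 0.592). In both genes transplant 5 was near the hosts and transplants 1 and 4 were the highest. The fusion protein Ocstamp and the receptor Oscar had the same order, from 8.01 and 7.24 in transplant 5 to 10.42 in transplant 1 and 9.73 in transplant 4. Tartrate-resistant acid phosphatase (Acp5) was 11.05 and 10.57 against 11.32 to 12.90. The protease cathepsin K (Ctsk) overlapped because transplant 5, at 8.52, lay below both hosts. In Atp6v0d2 the highest p53 tumour was 8.62 and the highest normal tissue 8.26, and the Ad-Cre transplants were 10.20 and 10.51.

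**Figure D5:**
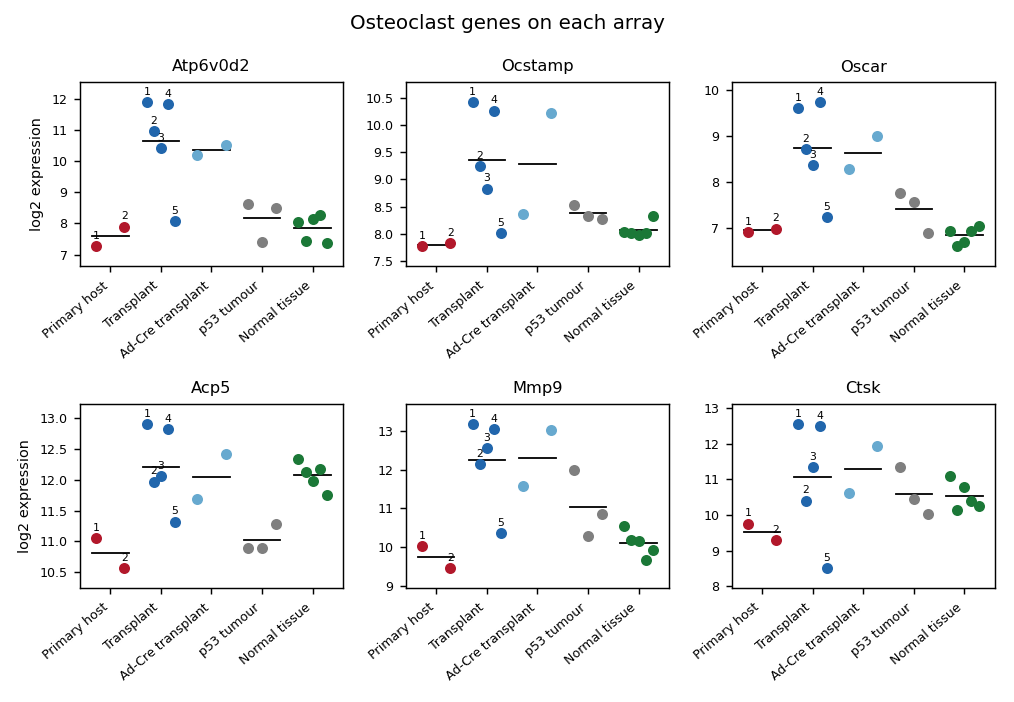
Log2 expression (vertical) of 6 osteoclast genes on each of the 17 arrays, by group, with a line at the group mean and replicate numbers above the primary-host tumours and transplants. Transplants 1 to 4 lie above both primary-host tumours in all 6 genes, and transplant 5 lies near or below them.

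General macrophage genes were not higher with them. Of 23 measured, 0 passed in limma and the median was -0.066. At an unadjusted p below 0.05, 4 were lower, where 4.06% of all genes were. The growth factor receptor Csf1r was 11.47 and 10.63 in the hosts and 10.60 to 12.36 in the transplants. The scavenger receptor Msr1 was 11.84 and 11.88 against 10.50 to 11.68 (-0.83, adjusted p = 0.605). Vsig4, a complement receptor of resident macrophages, was 11.13 and 10.90 in the hosts and 6.52, 9.86, 6.60, 8.71 and 6.97 in transplants 1 to 5 (-3.28, adjusted p = 0.592). Cd209d, a lectin of the same kind of cells, was 8.44 and 9.01 against 6.10 to 7.24 (-2.23 ± 0.32, adjusted p = 0.239).

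Inflammatory mediators gave no call. Of 25 cytokines and chemokines in a list added after the values were seen, 0 passed in limma. At an unadjusted p below 0.05, 6 were lower and 1 higher, where 4.06% and 3.86% of all genes were. In 3 all transplants lay below both hosts and in 1 above, where 5.46% and 8.80% of all genes did. The median was -0.37 (-0.10 without the nulliparous host tumour, -0.71 without the parous one), and the list means overlapped, at 8.72 to 9.20 in the hosts and 8.18 to 9.14 in the transplants. Interleukin 6 (Il6) measured 7.16 and 7.32 in the hosts and 5.69, 5.11, 5.90, 5.98 and 5.78 in transplants 1 to 5. The difference of -1.54 ± 0.23 had an adjusted p of 0.266, and of 0.045 without transplant 2. All 5 transplants lay below 6.37 in Il6, the lowest 25th percentile of any array, and the low-value filter removed the gene. The neutrophil-attracting chemokine Cxcl1 measured 9.31 and 9.04 and then 7.92, 7.89, 8.17, 8.23 and 8.32 (-1.07 ± 0.15, adjusted p = 0.239). The related Cxcl5 was 9.89 and 8.91 against 6.50 to 8.25 (-2.19, adjusted p = 0.555). The groups did not overlap in these 3 genes. Of 17 neutrophil genes and chemokines 2 were higher and 6 lower at an unadjusted p below 0.05 in limma. Among all genes 3.86% and 4.06% were, and the list median was -0.58. The neutrophil protein S100a8 overlapped (7.94 and 8.28 against 6.72 to 8.0). Hepatocyte growth factor (Hgf), the ligand of the Met receptor, was higher in the transplants, at 8.91 and 7.94 against 9.78 to 11.65 (2.26, adjusted p = 0.564).

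The stromelysins Mmp10 and Mmp3, matrix proteases, were lower in the transplants, and both belong to the gene cluster beside Yap1. Mmp10 was 12.19 and 10.22 in the hosts and 7.53 to 8.86 in the transplants (-3.04, adjusted p = 0.362), and Mmp3 was 13.20 and 11.01 against 9.33 to 10.79 (-2.16, adjusted p = 0.568). The collagenase Mmp13 of the same cluster overlapped, at 13.82 and 10 in the hosts, 12.30 in transplant 5 and 8.07 to 9.45 in the others. The transcriptional coactivator Yap1 was 13.51 in the nulliparous host, 10.16 in the parous host, 13.46 in transplant 5 and 10.11 to 10.30 in the other transplants. The apoptosis inhibitor Birc2 beside it was 12.47, 8.63, 12.43 and 8.37 to 8.58 in the same order. Met, the receptor for hepatocyte growth factor, was 13.36 in the parous host, 10.78 in the nulliparous one and 10.65 to 11.91 in the transplants. High Yap1 and Birc2 therefore occurred in 1 tumour of each group, and high Met in 1 primary-host tumour.

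Proliferation genes were close between the groups, and endothelial and fibroblast genes are given beside them. Of 37 E2F target and replication genes and 27 mitosis genes, 0 passed in limma and 0 had an unadjusted p below 0.05, with medians of 0.099 and -0.061. The proliferation marker Mki67 was 10.73 and 10.98 against 10.85 to 11.27 (difference 0.21, 95% interval -0.15 to 0.56). E2f1 was 9.28 and 9.45 against 9.42 to 10.36. The tumour suppressor Cdkn2a, which is high when Rb1 is lost, was 10.03 and 10.52 against 8.30 to 11.01, the lowest being transplant 2. Of 18 endothelial genes 0 passed and 0 had an unadjusted p below 0.05 (median 0.037), and Pecam1, an endothelial adhesion molecule, averaged 10.12 ± 0.16 (SD, n = 2) against 9.95 ± 0.37 (SD, n = 5). Of 20 fibroblast and matrix genes 0 passed in limma. At an unadjusted p below 0.05, 3 were lower and 0 higher, where 4.06% and 3.86% of all genes were. The list median of -0.139 depended on the host tumour used. It was 0.261 without the nulliparous one and -0.646 without the parous one. Of the 3 lower genes, Pi16, a marker of adventitial fibroblasts, was 9.16 and 8.41 against 7.23 to 8.15 (-1.29, adjusted p = 0.564). The proteoglycan Lum was 10.34 and 9.10 against 6.29 to 8.97, and Clec3b was 7.60 and 7.34 against 6.82 to 7.22.

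The genes with the largest moderated t beyond those that passed included several with no place in the lists. On the high side, the lysyl oxidase Loxl3 measured 10.26 and 9.89 in the hosts and 12.06, 11.99, 11.55, 11.28 and 11.55 in transplants 1 to 5 (1.61 ± 0.23, adjusted p = 0.239). The glycoprotein folding sensor Uggt2 measured 7.26 and 6.82 and then 8.97, 9.76, 8.79, 8.63 and 8.77 (1.94 ± 0.31, adjusted p = 0.266). The kinesin-like Stard9 was 8.57 and 8.51 against 9.40 to 9.82 (1.03, adjusted p = 0.167), and the ETS factor Etv5 was 9.05 and 8.85 against 9.63 to 9.99. On the low side, Srp9 of the signal recognition particle was 11.05 and 11.24 against 10.41 to 10.50 (-0.69, adjusted p = 0.173). The red cell enzyme Bpgm was 9.62 and 9.55 against 8.14 to 8.81 (-1.12, adjusted p = 0.266), and Rgs18, a regulator of G protein signalling in platelets and myeloid cells, was 9.47 and 9.38 against 7.89 to 8.59 (-1.27, adjusted p = 0.239). These genes were selected among those whose groups do not overlap.

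The 2 Ad-Cre Rb/p53 transplants and the 3 p53 tumours, none of them in the fit of the MMTV-Cre Rb/p53 tumours, carry the same contrast of labels, although Cre delivery and the Rb1 genotype differ between them as well. No gene passed in limma (0 of 19938), and 686 (3.44%) had an unadjusted p below 0.05. Jchain was 5.34 and 5.74 in the Ad-Cre transplants and 7.17, 7.09 and 8.29 in the p53 tumours (-1.97 ± 0.42, adjusted p = 0.813). Igkv6-20 and Igkv9-120 were lower there too without overlap, by -0.49 and -0.82 on the log2 scale. Of the 11 immunoglobulin genes 7 lay below all p53 tumours in both Ad-Cre transplants, where 14.2% of all genes did. The milk genes did not follow: Glycam1 was 6.33 and 9.22 in the Ad-Cre transplants against 6.62 to 7.94 (0.33), and Wap was 7.47 and 9.45 against 7.61 to 8.44 (0.48). Sgce (1.45) and Peg10 (1.02) were higher on average but overlapped. Il6 had the opposite sign, at 6.75 and 6.88 against 5.65 to 5.92 (1.06). Whether any of these differences differs from the one between the MMTV-Cre groups was not tested.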

How the data were processed

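The authors deposited log2 expression values of 35556 probe sets on 17 arrays, made by RMA in Partek 5.6 per the submitters' processing notes; further settings, and a build, were not given in the sources used here. Only probe sets with a single symbol stood for genes, and of several for 1 symbol the brightest on average over the 17 arrays was used, leaving 19938 genes. The 7 arrays were compared with limma 3.58.1 (R 4.3.3) by lmFit and eBayes, as 2 groups with no covariate, both sides, with Benjamini-Hochberg adjustment over all genes and a threshold of 0.05. The Ad-Cre transplants and p53 tumours were fitted the same way on their 5 arrays. The fit was tested on simulated data. Samples are separate tumours by their labels; there are no counts, so the number of arrays limits the precision. RMA compresses differences of dim probe sets, and its deposited values have no detection call.

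Named genes were those past the threshold, the 10 with the largest moderated t in each direction among genes whose groups do not overlap, up to 4 members of each list by smallest p, and a fixed set; others named were chosen after their values were seen. The members and lists were chosen with earlier results of these data known, and 5 lists were added after the values were seen. Alternatives changed the variance model, array weights, low-value filter, normalization, probe set rule, arrays fitted and each replicate. Motifs were searched in the RefSeq promoter table.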

Additional observations from a re-analysis of the deposited data

Results flagged for a closer look

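In 17 of 94 named genes, 1 transplant exceeded Dixon's 95% critical value of 0.71. The measure is its gap to the nearest of the others, divided by the range of the 5. Chance alone flags about 1 gene in 20 among genes chosen without regard to their values. Some of the 94 were named after their values were seen, so the count cannot be set against that rate. Transplant 4 was the highest in Adipoq (8.33), Mcpt4 (7.85), Pi16 (8.15), Ltf (8.66), Btn1a1 (8.87) and Csn1s2b (6.68). Transplant 2 was the lowest in Cd74 (8.55), Trim12a (5.99), Cdkn2a (8.30), S100a8 (6.72) and Derl3 (7.77). Transplant 5 was the highest in Yap1 (13.46) and Birc2 (12.43). Transplant 1 was the highest in Dlk1 (11.18) and Ncr1 (8.75) and the lowest in Chia1 (6.59), a gap of 0.09 at the floor of that gene. Transplant 3 was the lowest in Xdh (9.65). The 2 primary-host tumours are too few for such a test.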

How the results depend on the processing

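The count of 5 genes (1 higher, 4 lower) depended on the arrays used. With MCRP-1280 added to the primary-host tumours 0 genes passed (0 higher, 0 lower), although 1564 had an unadjusted p below 0.05 in limma. With the Ad-Cre transplants added 9 passed (2 higher, 7 lower), 4 of them among the 5, and Glycam1 had an adjusted p of 0.0848. With all 12 tumour arrays in the fit 0 were higher and 5 lower. With all 17 arrays 2 were higher and 2 lower, none of them among the 5: Peg10, Uggt2, Jchain and Il6. Over all probe sets 16 passed (5 higher, 11 lower). The intensity trend with robust eBayes, the low filter and the mean of probe sets each gave 2 higher, the second being Peg10. Leaving out 1 array gave 4 to 158 genes called, 1 to 12 higher and 3 to 146 lower; the count was 158 without the nulliparous host tumour, 10 without the parous one and 9 without transplant 2. Sgce, Glycam1 and Wap passed in all 7 of these fits. Igkv9-120 did not without transplant 1 (adjusted p = 0.0759) or transplant 5 (adjusted p = 0.0753). Leaving out a host tumour leaves a host group of 1 array, which is assumed to vary like the transplants, so only differences are given for those fits. Array weights, quantile and cyclic loess normalization and a minimum log2 difference of 1 each kept the same 5 genes. The comparison of Ad-Cre transplants with p53 tumours gave 0 in limma in every alternative that kept at least 2 arrays in each group. In those alternatives 599 to 1107 genes had an unadjusted p below 0.05. No called value changed sign. The cause of these changes was not tested. No paired analysis was possible because the labels give the groups no shared replicate numbers. The split of immunoglobulin probe sets and the class II median without transplant 2 (0.76, against 0.416 with it) were chosen after seeing the data.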
